A study of Mus musculus with 6 samples.

Results

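The genes described here encode the proteins that build elastic fibres: the fibulins Efemp1, Efemp2, Fbln1, Fbln2 and Fbln5, the fibrillins Fbn1 and Fbn2, and the lysyl oxidases Lox and Loxl1. They were taken from the deposited count table by gene symbol, and 9 of the 10 genes listed had a row, among 23842 genes in all. The elastin gene Eln, the tenth, was not analysed here. All 9 passed the filter on low counts and were among 15039 genes tested. The list was drawn up because Efemp1 is nearly lost in the libraries labelled as knockout, so the values of these 9 genes between the groups are given as a description, without p-values.

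Elastic fibres give skin, arteries and lung their recoil. Tropoelastin is laid down on microfibrils built of fibrillin, fibulins bring tropoelastin, microfibrils and cross-linking enzymes together, and lysyl oxidases then oxidise lysines so that the elastin monomers become cross-linked. Fibroblasts and smooth muscle cells are the main makers of these proteins.

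RNA was sequenced from cultured embryonic fibroblasts of C57BL/6 mice, cells grown out of dissociated embryos. The 3 libraries of one group are labelled NGLY1-/- and the 3 of the other WT, all grown untreated in high-glucose medium with serum. NGLY1 is the cytosolic enzyme that removes N-linked glycans from misfolded glycoproteins. The labels do not say how the gene was inactivated, at what age the embryos were taken, or whether a group's libraries were made from different embryos or dishes, so the spread between them may be technical. The counts of Ngly1 itself were 668, 632 and 307 for wild type and 618, 420 and 457 for the knockout label. They do not check the labels, because reads summed along a gene do not reveal a deleted exon. Total counts ran from 27323577 to 37841558 per library, and ribosomal RNA genes took 0.215% to 5.25% of them. Levels below are CPM, counts relative to library size after TMM adjustment, and fold changes are knockout over wild type from a fit across all tested genes.

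Markers of fibroblasts were present in both groups, with a summed level of 3760 to 4310 CPM over 10 genes in the knockout-labelled libraries and 6120 to 6880 CPM in the wild-type libraries. Of these, Col1a1 and Col1a2, chains of type I collagen, ranged from 1017 to 2427 CPM across the libraries, while Lum, the proteoglycan lumican, had at most 1 count in any library. In edgeR's test 60.9% of all tested genes were called at a false discovery rate of 5%, 30.7% higher and 30.2% lower. Those shares stand beside every count of called markers here, and nothing is read from the counts themselves. Of 9 tested fibroblast markers, 1 rose and 6 fell, with S100a4 falling from a mean of 1008 to 132.9 CPM and the intermediate filament gene Vim from 1741 to 677.1 CPM. The one that rose was Dcn, the proteoglycan decorin, from 3.36 to 15.7 CPM. Smooth muscle markers summed to 268 to 340 CPM over 8 genes against 165 to 237 CPM, with Myh11, the defining smooth muscle myosin, under 1 CPM throughout. Of 6 tested, 3 rose and 2 fell: the actin gene Acta2 rose from 105.6 to 206.3 CPM, while the kinase gene Mylk fell from 20.9 to 6.97 CPM and the calponin gene Cnn1 from 2.94 to 0.0392 CPM. Mesothelial markers (4 of 6 with a row) summed to 214 to 269 CPM against 403 to 519 CPM, nearly all of it Msln and Krt19. All 3 tested fell: Msln from 376.2 to 212.1 CPM, Krt19 from 74.1 to 24.8 CPM, and Upk3b. Here Lrrn4 had 0 counts in the knockout-labelled libraries and at most 2 in a wild-type library, and Upk3b had 2 counts over the former and 145 over the latter. Endothelial (5 of 7 with a row) and epithelial (6 of 8) markers summed to under 3 CPM in every library. Of 2 tested endothelial markers, Kdr rose from 1.14 to 2.19 CPM and Tek did not pass. Among those not tested, Pecam1 and Erg each dropped from 27 summed wild-type counts to 2, with 1 count of Erg in wild-type replicate 3. Cdh5, also untested, averaged 0.178 CPM in wild type and 0.0583 CPM under the knockout label. Of 3 tested epithelial markers 2 fell. Among the untested epithelial ones, Cldn4 dropped from 14 summed counts to 2, Epcam went from 2 to 11, and Cldn7 averaged 0.150 and 0.135 CPM. Macrophage markers (5 of 7 with a row) summed to 8.93 to 10.2 CPM against 5.27 to 8.43 CPM. Ptprc, the pan-leukocyte marker, had 0 counts in the knockout-labelled libraries and at most 3 in a wild-type library. Of 2 tested macrophage markers, Cd14 rose from 4.29 to 6.95 CPM and Cd68 did not pass. Cartilage markers (5 of 7) summed to at most 33.6 CPM against at most 14.1 CPM. Of these, Sox9 rose from 10.3 to 26.1 CPM and Matn3, the only other one tested, fell from 2.44 to 0.306 CPM. The part of these shifts in the results below was not tested, and in bulk RNA fewer cells of a type and less RNA per cell cannot be told apart.

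The short fibulins are the small members of the family, made of calcium-binding EGF-like repeats and a fibulin domain. Efemp1 encodes fibulin-3, Efemp2 fibulin-4 and Fbln5 fibulin-5, and the last 2 are needed for elastic fibre assembly in the mouse. Efemp1 (gene ID 216616; chromosome 11, 28853154 to 28926743, GRCm38 coordinates as for all genes below) was counted 9677, 9463 and 6103 times in wild type and 22, 32 and 26 times under the knockout label. In CPM these were 237.8, 243.0 and 223.3 against 0.649, 0.975 and 0.733, means of 234.7 ± 10.3 and 0.786 ± 0.17 (SD, n = 3 each). All 3 wild-type libraries were high and close together and all 3 knockout-labelled libraries low, with some reads left in each. The log2 fold change was -8.22 with a standard error of 0.15, a level 298-fold lower.

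Efemp2 (gene ID 58859; chromosome 19, 5473946 to 5482520) had 110.3, 111.6 and 102.4 CPM in the wild-type libraries and 109.2, 97.9 and 100.7 CPM in the knockout-labelled libraries. The groups overlapped, and its log2 fold change was -0.08 with a standard error of 0.09. Fbln5 (gene ID 23876; chromosome 12, 101746565 to 101819119) had 60.8, 57.1 and 52.1 CPM in the wild-type libraries against 117.2, 104.3 and 108.7 CPM, a level 1.94-fold higher in the knockout-labelled libraries (log2 0.96, standard error 0.10). The 3 short fibulins thus took 3 courses in the same libraries: one nearly absent, one with overlapping groups, and one higher in every knockout-labelled library than in any wild-type library. Ratios within a library do not depend on how libraries are scaled. Per kilobase of transcript, Efemp1 stood at 2.79, 2.82 and 2.82 times Efemp2 in the wild-type libraries and at 0.00768, 0.0129 and 0.00941 times in the knockout-labelled libraries. The ratio of Fbln5 to Efemp2 went from 0.237 ± 0.0108 to 0.485 ± 0.00329 (SD, n = 3 each). Such ratios do depend on the length used. Per kilobase of coding sequence, Fbln5 and Efemp2 averaged 41.0 and 78.0 CPM in wild type. In the knockout-labelled libraries they averaged 79.6 and 74.0 CPM, with libraries that overlapped.

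The sequences just before the listed transcription starts of these 3 relatives are shown because their levels diverged so widely. Each is the 250 bases upstream on the gene's strand, 5′ to 3′, from RefSeq (GRCm38.p6), with capitals marking matches on either strand to 4 promoter motifs: the TATA box as TATAAA, the CCAAT box as CCAAT, the SP1 core as GGGCGG and the AP-1 site as TGACTCA. They lie at chr11:28852955-28853204 on the plus strand for Efemp1, chr19:5473696-5473945 on the plus strand for Efemp2, and chr12:101819120-101819369 on the minus strand for Fbln5. Efemp2 and Fbln5 have further listed starts, and the last 51 bases of the Efemp1 window fall within the range RefSeq gives for the gene.
Efemp1: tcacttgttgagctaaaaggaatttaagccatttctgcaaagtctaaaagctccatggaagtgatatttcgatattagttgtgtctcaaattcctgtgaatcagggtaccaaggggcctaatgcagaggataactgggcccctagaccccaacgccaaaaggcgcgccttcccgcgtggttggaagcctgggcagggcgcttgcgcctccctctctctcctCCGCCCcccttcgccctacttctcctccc
Efemp2: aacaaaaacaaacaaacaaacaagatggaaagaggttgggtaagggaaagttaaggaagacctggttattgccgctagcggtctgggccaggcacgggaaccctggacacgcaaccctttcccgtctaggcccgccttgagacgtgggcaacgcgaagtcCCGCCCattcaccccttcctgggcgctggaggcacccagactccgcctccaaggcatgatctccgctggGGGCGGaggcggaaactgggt
Fbln5: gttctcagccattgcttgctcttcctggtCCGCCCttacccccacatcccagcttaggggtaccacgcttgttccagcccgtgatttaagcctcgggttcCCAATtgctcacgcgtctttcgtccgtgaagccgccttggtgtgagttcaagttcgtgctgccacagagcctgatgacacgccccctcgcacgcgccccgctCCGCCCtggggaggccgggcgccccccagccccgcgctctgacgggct
The windows shown held GGGCGG once in Efemp1 and 2 times each in Efemp2 and Fbln5, a motif found in 32.9% of the first listed windows of 27025 genes. Of the remaining motifs, only CCAAT in Fbln5 matched, once; the shares over all windows were 34.5% for CCAAT, 13.0% for TATAAA and 4.43% for TGACTCA. The matches do not overlap one another. CG dinucleotides numbered 10 in Efemp1, 15 in Efemp2 and 21 in Fbln5, against a median of 6 over all windows, with an interquartile range of 2 to 16. These values hold for the first listed start of each gene. At the other starts, the Efemp2 windows overlap, with 27 and 33 CG dinucleotides and the same 5 GGGCGG matches, some of which overlap one another. The other Fbln5 window had 6 CG dinucleotides and no match to any of the 4 motifs. Letters alone are a description of these windows and do not show binding or use.

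**Figure D1:**
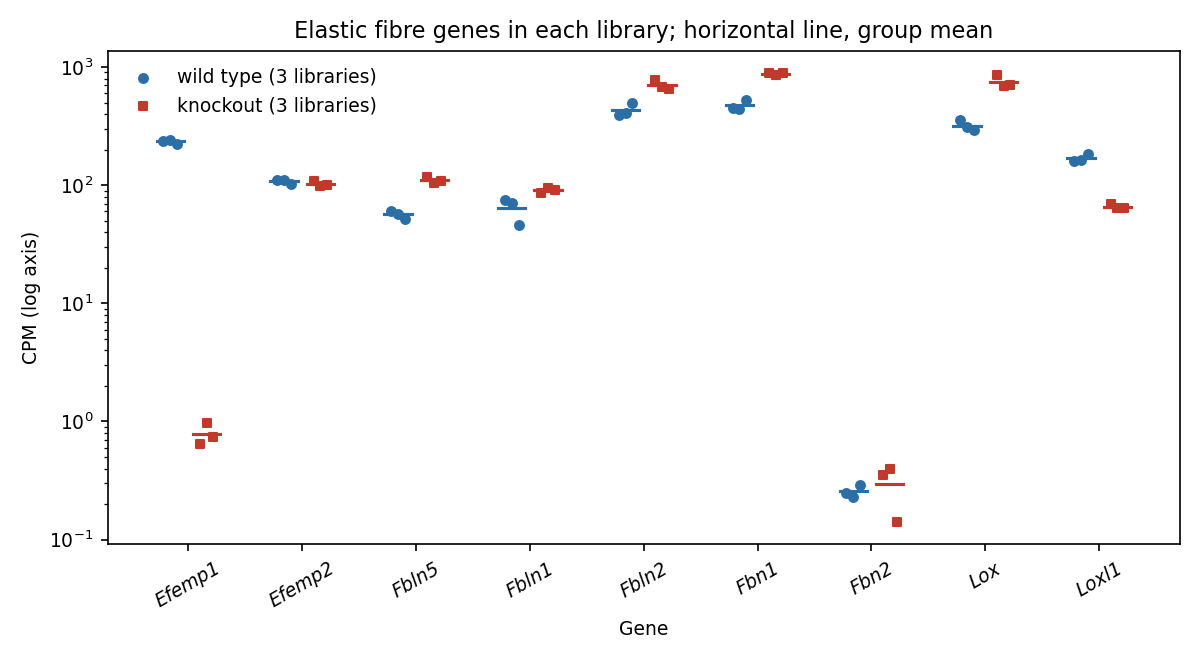
CPM of the 9 genes (log axis) in each of the 3 wild-type libraries (blue circles) and 3 knockout-labelled libraries (red squares), with group means as horizontal lines. Efemp1 sits near 235 CPM in wild type and under 1 CPM in knockout, Efemp2 and Fbn2 overlap between the groups, and the other 6 are separated by 2.57-fold or less.

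The larger fibulins, which carry anaphylatoxin-like modules before their EGF-like repeats, bind many matrix and basement membrane proteins. Fbln2 (gene ID 14115; chromosome 6, 91212460 to 91272540), the fibulin of the most counts, had 393.2, 411.1 and 500.2 CPM in the wild-type libraries and 780.6, 678.8 and 648.6 CPM in the knockout-labelled libraries, 1.62-fold higher (log2 0.69, standard error 0.12). The groups did not overlap, with wild-type replicate 3 the highest of its group and knockout replicate 3 the lowest of the other. Fbln1 (gene ID 14114; chromosome 15, 85205949 to 85286294) had 74.6, 70.2 and 45.8 CPM against 86.4, 94.2 and 90.6 CPM, 1.42-fold higher (log2 0.51, standard error 0.16). Wild-type replicate 3 was the low library in that group and gave Fbln1 the widest relative spread of the wild-type values, 24.4% of the mean. The call of Fbln1 as higher was lost when knockout replicate 2 or 3 was left out and when libraries were scaled by their totals only.

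Counted per kilobase of the longest coding transcript, which allows levels of different genes to be compared, Efemp1 made up 43.0%, 43.1% and 39.9% of the summed level of the 5 fibulins in the wild-type libraries. In the knockout-labelled libraries it made up 0.128%, 0.215% and 0.165%. Fbln2 went from 33.1 ± 4.3% to 63.8 ± 1.67% of the sum, Fbln5 from 3.54 ± 0.293% to 8.23 ± 0.302% and Fbln1 from 6.34 ± 1.56% to 10.8 ± 1.13% (SD, n = 3 each). Efemp2 held 14.2% to 15.4% and 16.7% to 17.6%. The sum itself was 272 to 277 CPM per kb in wild type and 218 to 249 CPM per kb in the knockout-labelled libraries, so the total of fibulin transcripts was lower by much less than the level of Efemp1. Among the short fibulins alone, the sum went from 157 to 171 CPM per kb down to 55.6 to 61.9 CPM per kb. With coding length in place of transcript length, Efemp1 held 37.2 ± 1.16% of the wild-type fibulin sum and 0.138 ± 0.0353% of the other, and Fbln2 27.9 ± 4.0% and 49.3 ± 1.67%.

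**Figure D2:**
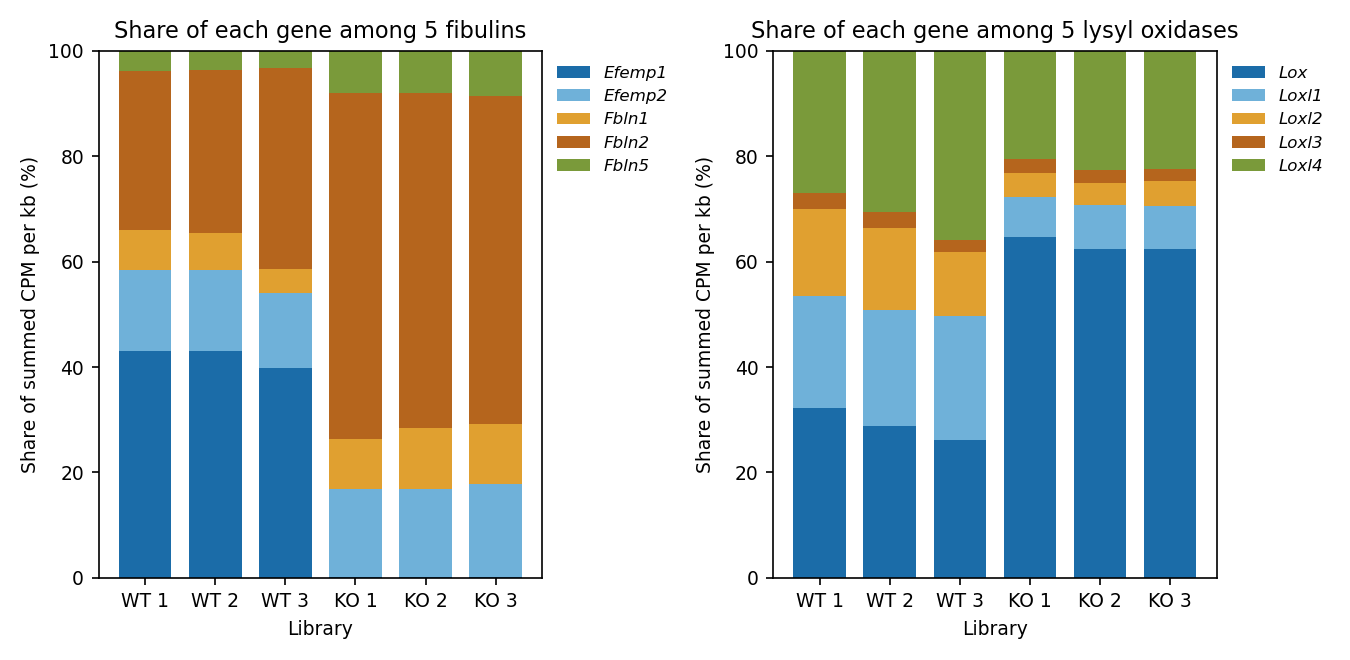
Percent of the summed CPM per kb of transcript held by each gene in each library, for 5 fibulins (left) and 5 lysyl oxidases (right), with WT for wild type and KO for knockout-labelled libraries. The Efemp1 segment, 39.9% to 43.1% in wild type, is too thin to see in the knockout-labelled bars, and the Lox segment is 26.2% to 32.3% against 62.3% to 64.7%.

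Fibrillins polymerise into the microfibrils on which elastin is deposited and which hold latent TGF-beta in the matrix. Fbn1 (gene ID 14118; chromosome 2, 125300594 to 125506485), the gene mutated in Marfan syndrome, had 448.7, 445.9 and 526.1 CPM in the wild-type libraries and 885.0, 858.5 and 887.5 CPM in the knockout-labelled libraries, 1.85-fold higher (log2 0.89, standard error 0.10). The groups did not overlap, and wild-type replicate 3 was the high library of its group. Fbn2 (gene ID 14119; chromosome 18, 58008623 to 58210572), the fibrillin of early development, was barely detected, with 10, 9 and 8 counts against 12, 13 and 5 in the knockout-labelled libraries. Its groups overlapped (log2 fold change 0.21, standard error 0.50), and at this depth a difference of that size was not detectable. Per kilobase of transcript, Fbn1 averaged 39.6 CPM in wild type and 73.3 CPM under the knockout label, and Fbn2 0.0232 and 0.0269 CPM.

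Lysyl oxidases are copper enzymes that start the cross-linking of elastin and collagen. Lox (gene ID 16948; chromosome 18, 52516060 to 52529867) had 354.0, 308.5 and 294.3 CPM in the wild-type libraries and 857.6, 687.3 and 703.1 CPM in the knockout-labelled libraries, 2.35-fold higher (log2 1.23, standard error 0.12). Loxl1 (gene ID 16949; chromosome 9, 58287723 to 58313212), the enzyme that maintains elastic fibres in adult tissue, went the other way, with 161.0, 163.5 and 182.9 CPM against 69.1, 64.5 and 64.2 CPM, 2.57-fold lower (log2 -1.36, standard error 0.09). Neither gene's groups overlapped. The ratio of Lox to Loxl1 per kb of transcript was 1.53, 1.31 and 1.12 in the wild-type libraries and 8.63, 7.41 and 7.62 in the knockout-labelled libraries. Together with Loxl2, Loxl3 and Loxl4, the 5 enzymes summed to 226 to 237 CPM per kb in wild type and 233 to 280 CPM per kb in the knockout-labelled libraries, which overlap. Per kb of coding sequence the sums were 546 to 578 and 712 to 871 and did not overlap. Within the transcript-length sum, Lox went from 29.1 ± 3.08% to 63.1 ± 1.34% and Loxl1 from 22.2 ± 1.14% to 8.03 ± 0.478% (SD, n = 3 each).

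Ordered by CPM per kb of transcript, the wild-type libraries ran Efemp1 (115), Fbln2 (90.9), Lox (67.3), Loxl1 (51.3), Efemp2 (41.0), Fbn1 (39.6), Fbln1 (17.4), Fbln5 (9.72) and Fbn2 (0.0232). Only Efemp2 and Fbn1, neighbours in that order, had libraries that overlapped. In the knockout-labelled libraries the order was Lox (158), Fbln2 (147), Fbn1 (73.3), Efemp2 (39.0), Fbln1 (24.7), Loxl1 (19.5 to 21.0 over its libraries), Fbln5 (18.9), Efemp1 (0.386) and Fbn2 (0.0269). There, Lox overlapped with Fbln2 and Loxl1 with Fbln5. Efemp1 thus went from the first of the 9 to the eighth, above Fbn2 alone. Per kb of coding sequence it was second in wild type, behind Lox (159 against 259 CPM per kb), and again eighth in the knockout-labelled libraries.

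Across the 9 genes, 5 were called higher and 2 lower at a false discovery rate of 5% in edgeR's quasi-likelihood test, and 2 did not pass. Over all tested genes 60.9% were called, 30.7% higher and 30.2% lower. The groups did not overlap for 7 of the 9, against 67.3% of all tested genes. The median log2 fold change was 0.51 over the 9 genes and -0.04 over all tested genes. Since the contrast chose the list, nothing is read from these counts.

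The position of each gene was set beside its value, because the medians of chromosomes differed in this comparison. Among genes of at least 5 CPM on average, the median log2 fold change was 0.07 over 10449 genes, and the chromosomes of the 9 genes ranged from -0.33 (chromosome 6, Fbln2) and -0.32 (chromosome 9, Loxl1) to 0.34 (chromosome 2, Fbn1) and 0.58 (chromosome 18, without Lox itself). The chromosome of Efemp1 was near it, with a median of 0.05 over 856 other genes of chromosome 11. Within 5 Mb of Efemp1, 29 other such genes had a median of -0.01, 8 of them called higher and 8 lower, with values from -1.76 (Ranbp17) to 3.76 (Stc2), both named after their values were seen. None came near the -8.22 of Efemp1. Over all tested genes, not only those of at least 5 CPM, 30.7% were called higher and 30.2% lower. Of the nearest tested genes, Pnpt1, an RNA-processing exonuclease gene 203 kb away, rose 2.98-fold (edgeR adjusted p = 3.44e-06), while Ppp4r3b, a phosphatase regulator gene 246 kb away, did not pass (log2 -0.02, adjusted p = 0.885). On the other side, 2260 and 2380 kb away, Vrk2, a kinase gene, rose 1.33-fold (adjusted p = 0.00854) and Fancl, a Fanconi anaemia gene, fell by 0.58 on the log2 scale (adjusted p = 0.0215); the ranges of these last 2 overlap, so they could exchange reads. Scaling by totals only ended the call of Vrk2 (adjusted p = 0.0616). The call of Fancl was lost on leaving out knockout replicate 2 (adjusted p = 0.0764), replicate 3 of that group (adjusted p = 0.0846) or the second wild-type library (adjusted p = 0.115).

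**Figure D3:**
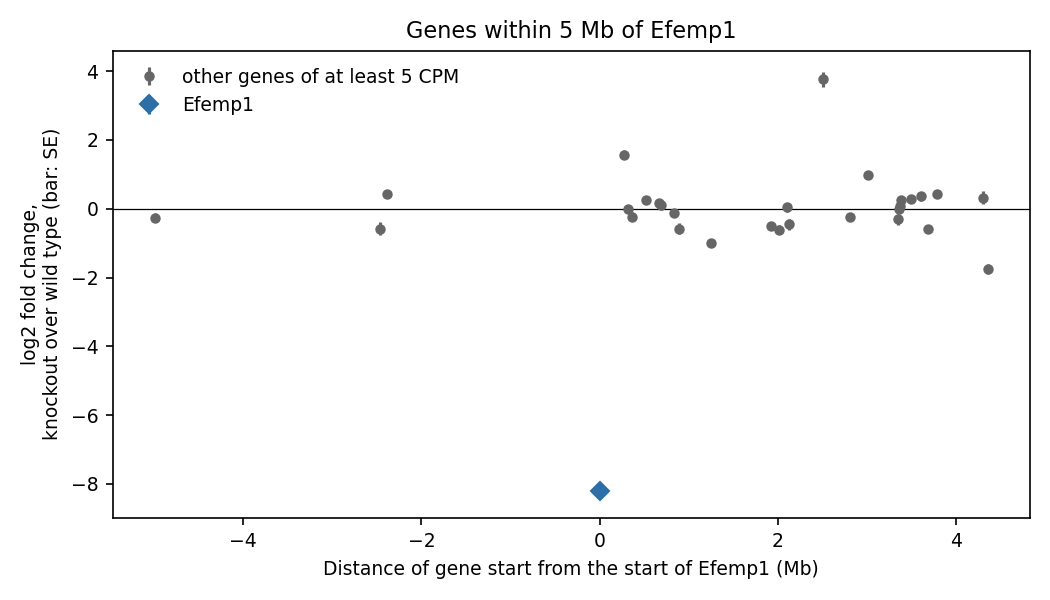
Log2 fold change with its standard error for genes of at least 5 CPM within 5 Mb of Efemp1, against the distance of their start from that of Efemp1 in Mb. The 29 other genes (grey) lie between -1.76 and 3.76 while Efemp1 (blue) is at -8.22.

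For the other genes the surroundings moved more. The genes within 5 Mb of Lox and Fbn2 had medians of 0.68 (18 genes) and 1.01 (40 genes), and those around Fbn1 had a median of 0.79, with 66 of 83 called higher. Beside the counts of called neighbours stand 30.7% higher and 30.2% lower over all tested genes. The shares among genes of at least 5 CPM, from which the neighbours are drawn, are not given here. Fbn1, at 0.89, and Lox, at 1.23, were above the median of their surroundings, with 48 of 83 and 12 of 18 neighbours below them. Loxl1, at -1.36, lay among genes with a median of -0.23, and 1 of 65 was lower than it. Fbln2, at 0.69, went against its surroundings, whose median was -0.39 with 25 of 49 called lower, and 43 of the 49 lay below it. Fbln5 (0.96) and Fbln1 (0.51) had surroundings with medians of 0.32 and 0.19, and Efemp2 (-0.08) one of -0.10. The part of the regional shifts in these values was not tested.

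No 2 of the 9 genes shared a stretch of 50 bases in their longest coding transcripts, over 36 pairs. Among the 94.4% of table genes with RefSeq coordinates, no other gene overlapped the range of any of the 9. The rest could not be checked. The 5 genes whose log2 CPM, centred on its mean over the 6 libraries, lay closest to that of Efemp1 were BC034090, Cpxm2, Hand2, Arhgap32 and Aga, at a root mean square distance of 0.231, 0.29, 0.298, 0.33 and 0.345 log2 units. Like Efemp1 they were near off in the knockout-labelled libraries: BC034090 had 1, 1 and 2 counts there and 1095, 977 and 686 in the wild-type libraries. Cpxm2, a carboxypeptidase-like matrix protein gene, had 3, 11 and 4 against 2495, 2373 and 1399 counts. Hand2, a transcription factor gene of limb and heart, had 0, 0 and 1 against 929, 787 and 484 counts. Arhgap32 had 1, 2 and 1 against 698, 645 and 507 counts. Aga, a lysosomal glycoprotein-degrading enzyme gene, had 6, 4 and 5 against 2232, 2017 and 980 counts. Efemp1 was the one of the 6 with the most reads left, 80 over the knockout-labelled libraries, and the highest wild-type level, and the 6 lie on chromosomes 11, 1, 7, 8, 9 and 8 in the order given.

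The other genes of the pathway, listed by role, went both ways. Of 57 listed, 55 had a row and 45 were tested. At a false discovery rate of 5%, 14 rose and 16 fell with the knockout label, a share of the tested genes close to the background given above, and the median log2 value was -0.16. Among 3 relatives of the fibulins, Hmcn2, the gene of the giant matrix protein hemicentin-2, rose 2.60-fold (edgeR adjusted p = 0.000833), from 1.72, 1.88 and 1.32 CPM to 5.10, 3.54 and 4.20 CPM. Fbln7 and Hmcn1 did not pass and were under 1 CPM on average in both groups.

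Of the proteins that sit on microfibrils, 15 of 22 were tested, 7 higher and 5 lower, beside 30.7% and 30.2% of all tested genes. Adamtsl3, an ADAMTS-like matrix protein gene, changed most, from 6.39, 5.55 and 4.13 CPM in the wild-type libraries to 142.7, 117.2 and 122.3 CPM, a rise of 23.6-fold (edgeR adjusted p = 4.18e-08). The latent TGF-beta binding protein genes split. Ltbp2 rose 3.47-fold, and Ltbp4, whose product works with fibulin-4 and fibulin-5 in elastic fibre assembly, rose 2.26-fold (edgeR adjusted p = 1.1e-05 and 6.45e-05). Ltbp1 rose 1.22-fold (adjusted p = 0.0397), a call lost when any 1 library other than wild-type replicate 3 was left out (adjusted p up to 0.13), with library totals only (adjusted p = 0.138) and with at least 1 CPM required in 3 libraries (adjusted p = 0.0663). Ltbp3 fell 1.38-fold (adjusted p = 0.00396). Mfap5, the gene of a microfibril-associated glycoprotein that binds fibrillin, fell 7.35-fold, from 7.05, 5.21 and 4.17 CPM to 0.855, 0.762 and 0.62 CPM (adjusted p = 1.64e-05). Its relative Mfap2, named after its value was seen, fell 4.27-fold (adjusted p = 0.00902), from 2.02, 1.26 and 0.585 CPM to 0.118, 0.335 and 0.451 CPM. Wild-type replicate 3 was thus close to knockout replicate 3. The remaining 2 that fell were Adamtsl4, another ADAMTS-like gene, by 2.37-fold (adjusted p = 6.92e-05), and Emilin1, the gene of an elastin-associated glycoprotein, by 2.14-fold (adjusted p = 0.00871). Wild-type replicate 3 of Emilin1, at 37.8 CPM, was far below the other 2 at 79.4 and 76.4 CPM and close to the 23.5 to 33.7 CPM of the knockout-labelled libraries, and the call was lost with no low-count filter (adjusted p = 0.0901). Mfap4, which binds elastin and fibrillin, had at most 12 counts in a library and was not tested.

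Of 14 genes for cross-linking, copper supply and processing, 7 fell and 2 rose, 9 in all, where 60.9% of all tested genes were called. The median log2 value was -0.27, against -0.04 over all tested genes, and nothing is read from either about the list. Loxl2, another lysyl oxidase gene, fell 3.02-fold, from 202.3, 187.5 and 154.1 CPM to 69.5, 51.4 and 59.5 CPM (edgeR adjusted p = 7.98e-06), and Loxl4, named after its value was seen, fell 1.33-fold (adjusted p = 0.014), a call lost without knockout replicate 2 or 3 (adjusted p = 0.0639 and 0.0635). Loxl3 did not pass (log2 -0.03, adjusted p = 0.862). The transglutaminase gene Tgm2 fell 3.26-fold and Pcolce, the enhancer of procollagen C-proteinase, 1.95-fold (adjusted p = 0.000237 and 5.63e-05). Pcsk5, a proprotein convertase gene, had 40 counts over the wild-type libraries and 0 over the others. With the summed 0 set to a floor of 3 counts for the group the ratio is 12.7-fold, and with the counting error of both groups the level was at least 9.89-fold lower (95% limit; edgeR adjusted p = 0.000579). The 2 that were higher were Pcsk6, 2.47-fold (adjusted p = 0.00655), and the copper transporter gene Atp7a, 1.20-fold (adjusted p = 0.0207). Without wild-type replicate 2 (adjusted p of Atp7a = 0.0591), or scaled by library totals only (0.214), 1 was higher.

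Among proteases able to cut elastin and their inhibitors, 9 of 14 were tested, 3 higher and 2 lower, again beside 60.9% called over all tested genes. Mmp2, a gelatinase gene, rose 13.7-fold, from 21.8, 18.6 and 13.4 CPM to 261.4, 239.4 and 238.4 CPM (edgeR adjusted p = 1.45e-07). Ctsl, a lysosomal cathepsin gene, rose 1.61-fold and Timp1, a metalloprotease inhibitor gene, 1.99-fold (adjusted p = 0.000823 and 0.000532). Cst3, the cysteine protease inhibitor cystatin C, fell 1.41-fold (adjusted p = 0.00938) and Timp2, named after its value was seen, 1.26-fold (adjusted p = 0.0111). Without knockout replicate 2 or 3, 1 of these was lower, and without replicate 3 the call of Cst3 was lost (adjusted p = 0.0522), and without replicate 2 that of Timp2 (adjusted p = 0.0597). Timp3, whose product binds fibulin-3, had 240.9, 241.8 and 224.8 CPM in the wild-type libraries and 247.9, 217.5 and 231.9 CPM in the others, a log2 difference of -0.02 (adjusted p = 0.857). The elastases Mmp9 and Mmp12 and cathepsin S (Ctss) were under 1 CPM in every library and were not tested.

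In the elastin receptor complex, in which a splice form of the beta-galactosidase Glb1 binds elastin peptides, the 3 subunit genes split. Glb1 fell 1.60-fold and the sialidase gene Neu1 2.03-fold (edgeR adjusted p = 0.000449 and 0.00135), while Ctsa, the cathepsin A gene whose product holds the complex together, rose 1.63-fold (adjusted p = 0.00231). The fourth gene listed with them, Fkbp10, did not pass (log2 -0.18, adjusted p = 0.119). Of the 4 tested, 1 was thus higher and 2 lower, beside 60.9% called over all tested genes.

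**Figure D4:**
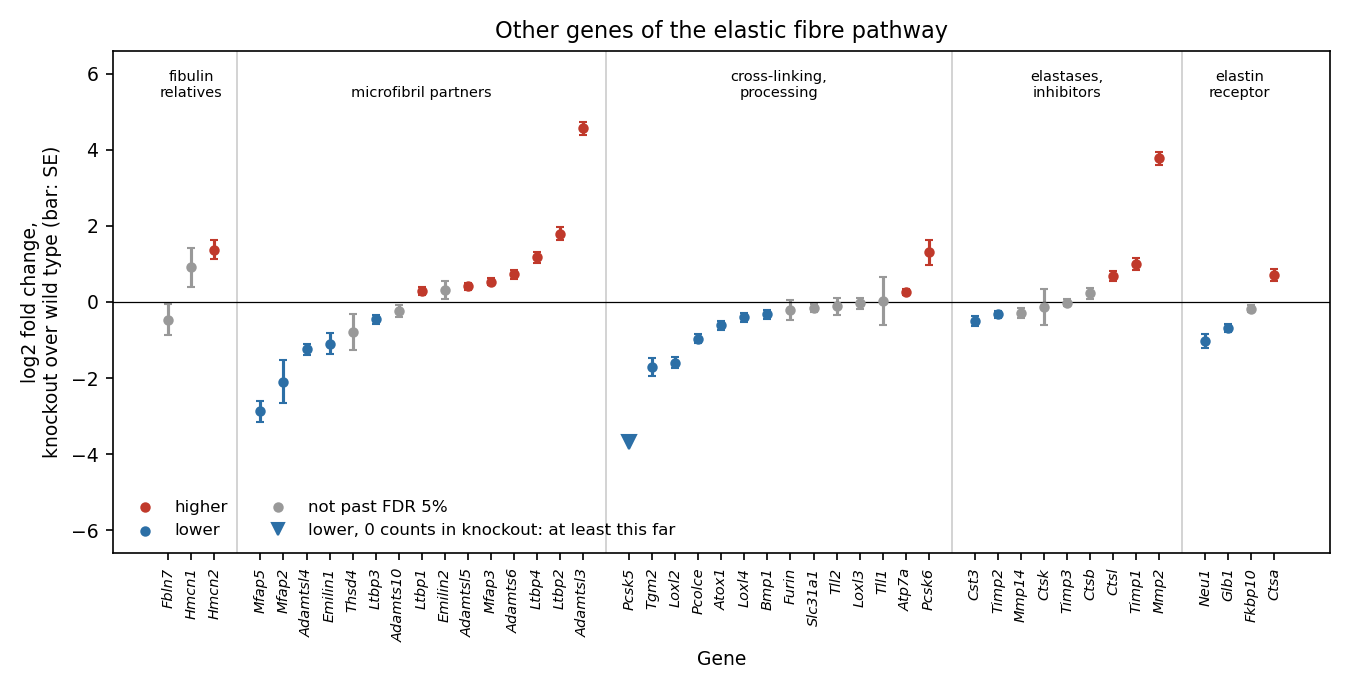
Log2 fold change, knockout over wild type, of the 45 tested pathway genes that are not among the 9, grouped by role, with bars for the standard error and colours for the call at a false discovery rate of 5%. Of these, 14 were higher (red) and 16 lower (blue), and the triangle for Pcsk5, which had 0 counts in the knockout-labelled libraries, is drawn at the ratio for a floor of 3 counts.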

How the data were processed

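Total RNA of 6 libraries, 3 labelled as NGLY1 knockout and 3 as wild type, was extracted with Trizol and prepared with a stranded kit, per the labels' protocols. The deposited table holds raw counts per gene with NCBI Gene ID and symbol, per the file headers. Per the submitters' processing notes, STAR 2.5.1b and build mm10 were used. How reads were counted, with which annotation and strand setting, is not given in the sources used here. Overlapping, antisense and near-identical genes could exchange reads. Columns were matched to samples by group and number.

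Counts were tested in R 4.3.3 with edgeR 4.0.16 (filterByExpr, TMM scaling, robust quasi-likelihood fit on genotype, two-sided, Benjamini-Hochberg over 15039 genes, false discovery rate 0.05). The standard error is the log2 fold change over the root of the F statistic. The steps were also run on simulated data, with settings and outcome not given here. Nothing is read from that run about data in which 60.9% of tested genes were called. Coordinates and promoters come from RefSeq (GRCm38.p6), with 97.3% of tested IDs found and promoter entries for 6 of the 9 genes. Transcript and coding lengths come from the longest coding transcript and coding sequence in GENCODE M21. Distances to Efemp1 used log2 CPM with a prior count of 2.

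The 10 genes and the pathway lists were chosen with earlier results of these data known. Named were the 9 genes, up to 4 genes per pathway list by p among those past the threshold, the 2 tested protein-coding genes on each side of a listed gene changed over 4-fold, the 5 closest to Efemp1, leaving out predicted genes, and list genes on which a count of 5 or fewer turns. Genes named beyond that were chosen to fill a role or after their values were seen. Alternatives were DESeq2 1.42.0 size factors and test, limma-voom (limma 3.58.1), library totals, other filters, a replicate block, libraries left out, and coding length. Depth was 27323577 to 37841558 counts per library. The interval and floor given for Pcsk5 reflect counting error alone, as PCR copies of a molecule could not be told apart.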

Additional observations from a re-analysis of the deposited data

How the results depend on the processing

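Over 14 alternatives, 7 of the 9 elastic fibre genes kept their direction and their side of the threshold in each. Fbln1 lost its call with library totals only (log2 fold change 0.38) and without knockout replicate 2 or 3 (0.49 and 0.53). Fbn2, uncalled, ranged from -0.03 (without knockout replicate 2) to 0.57 as single libraries were left out. Of 44 other named genes followed through the alternatives, 33 kept both in all alternatives that could be run. Some genes named above, such as Cd14 and Stc2, were not followed. The uncalled Timp3 turned to 0.01 with no low-count filter and ran from -0.06 to 0.04 as single libraries were left out, Loxl3 likewise ran from -0.15 to 0.07, and Ppp4r3b turned to 0.01 with no low-count filter, to 0.05 without both libraries numbered 3, and ran from -0.07 to 0.05 as single libraries were left out. With coding length in place of transcript length, 4 genes in the knockout-labelled and 5 in the wild-type libraries took another place in the order of levels. Fbn2, Pcsk5 and Mfap2 were not tested with at least 1 CPM in 3 libraries. Library totals only moved the median over all tested genes from -0.04 to -0.16 (log2), with 3911 genes called higher and 5318 lower in place of 4621 and 4539. With the replicate number as a block, 9253 genes were called against 9160, and the same numbers of listed and pathway genes (7 and 30). Without wild-type replicate 3, the library of fewest counts, 10203 genes were called, 33 of the pathway genes among them. Leaving out any other 1 library gave 8166 to 8559 called genes. Deviations of same-numbered libraries correlated at 0.096, 0.014 and 0.209, and those of differently numbered libraries at -0.176 to 0.149. Only the 0.209 of the libraries numbered 3 lay above that range, so the numbers are not taken to pair the samples. The libraries numbered 3 had the most ribosomal RNA of their groups (5.25% in knockout, 3.95% in wild type), and an effect they share was not tested. Depth limits what can be said of Fbn2, Mfap4 and the elastases under 1 CPM.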
